A study of Mus musculus with 4 samples.

Results

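The cadherins and protocadherins were taken as every gene whose symbol in the deposited tables begins with Cdh and a number or with Pcdh, apart from the endothelial cadherin gene Cdh5. This gave 90 of the 18702 genes listed, of which 22 were cadherins and 68 protocadherins. The cadherins comprised 17 classical cadherins, 5 of type I and 12 of type II, and 5 other cadherins. Of the protocadherins, 56 lay in the clusters Pcdha (14 genes), Pcdhb (21) and Pcdhg (21), and 12 were non-clustered. RNA sequencing was done on total RNA of eye tissue from C57BL/6 mouse embryos, with 2 libraries from Anp32b knockout embryos (KO, labelled Anp32b-/-) and 2 from wild-type embryos (WT, labelled Anp32b+/+). ANP32B is an acidic nuclear phosphoprotein that binds histones, and the series asks how its loss bears on PAX6, a transcription factor needed for the eye to form. Stage and sex of the embryos, how many were pooled for each library and how the allele was made are not given in the sources at hand. Whether replicate libraries stem from different embryos is likewise not said, and the p-values below therefore measure only the spread between these libraries, which may be technical.

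Cadherins are transmembrane proteins that hold cells together through calcium-dependent contacts between their extracellular repeats. Classical cadherins bind catenins inside the cell and through them the actin cytoskeleton, and which of them a cell carries is known to separate epithelia, neural tissue and mesenchyme. In the eye, the lens arises from surface ectoderm that carries E-cadherin and is known to be rich in N-cadherin, as is the neural retina. Protocadherins lack the catenin-binding tail of classical cadherins. Those of the clusters are known to be chosen in different combinations by individual neurons, including retinal amacrine cells, where they are used to tell a cell's own branches from those of its neighbours.

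Values are FPKM, the fragments per kilobase of transcript and per fixed number of sequenced fragments, as deposited by the authors, and errors on means are SDs with n = 2. Depth was estimated from steps between low values, at 17740000 to 17910000 fragments per library. On that estimate 1 FPKM on a transcript of 3 kb is 53.2 to 53.7 fragments. Only 55.1% to 63.4% of the values used came near whole fragments (30.0% by chance), so the estimate is uncertain. Anp32b itself was at 94.5 and 92.7 FPKM in KO libraries, against 163 and 179 FPKM in WT libraries, so transcript of the gene was lower and not absent, and which of its exons the fragments came from cannot be read from values per gene. Pax6 was at 108 and 111 FPKM in KO libraries, against 161 and 158 FPKM in WT libraries. Defining genes of lens, retina, muscle, mesenchyme and surface epithelium were above 0 in every library. All 11 lens markers were lower in KO libraries, with sums of 2925 and 2939 FPKM, against 31739 and 32175 FPKM in WT libraries. All 9 markers of skeletal muscle and all 9 of periocular mesenchyme were higher in KO libraries.

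Of the 90 members, 64 had a mean of at least 1 FPKM over the 4 libraries and were tested. Fold changes are differences of log2(FPKM + 1), KO minus WT, a scale that understates changes at low levels, and a member was called at a Benjamini-Hochberg adjusted p under 0.05 in a limma-trend fit over all 13887 genes at that level. The other 26 were 7 Cdh genes, 12 of Pcdha, 6 of Pcdhb and 1 of Pcdhg. Of the genes tested 54.6% were called, 33.5% higher and 21.1% lower. Among the 64 members 12 were higher and 10 lower, so 34.4% were called. That smaller share than over all genes held with the many low clustered genes included, and at a mean of 6 FPKM or more 8 of 11 members were called (72.7%, beside 56.1% of all genes). The median log2 fold change was 0.02 over the tested members and 0.04 over all genes tested. Both KO values lay beyond both WT values in 43 of the 64, where 77.9% of all tested genes did so. The split depended on scaling and on single libraries. With the deposited TPM values, which moved the median of all genes up by 0.12, 22 members were higher and 7 lower, beside 49.9% and 12.0% of all genes. With crystallin and erythroid genes left out of the scaling 11 were higher and 15 lower, beside 25.4% and 31.2%. The number lower was 5 without WT replicate 2 (16.3% of all genes) and 5 without KO replicate 1 (14.8%), 7 without WT replicate 1 (16.5%) and 8 without KO replicate 2 (14.7%). In the same order 10, 10, 9 and 8 members were higher, beside 27.5%, 24.6%, 28.4% and 24.3% of all genes. Where 5 FPKM in 2 libraries were required, 17 members were tested, and 12 were called (70.6%, beside 57.3% of all genes), 8 higher and 4 lower, beside 34.1% and 23.1%. In 8 of the 12 higher members and 5 of the 10 lower ones the call was kept under all alternatives that tested them. The 8 were Cdh1, Cdh11, Cdh13, Cdh15, Pcdh12, Pcdh18, Pcdh20 and Pcdhgc3, and the 5 were Cdh2, Cdh20, Cdh22, Pcdh17 and Pcdh19.

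**Figure D1:**
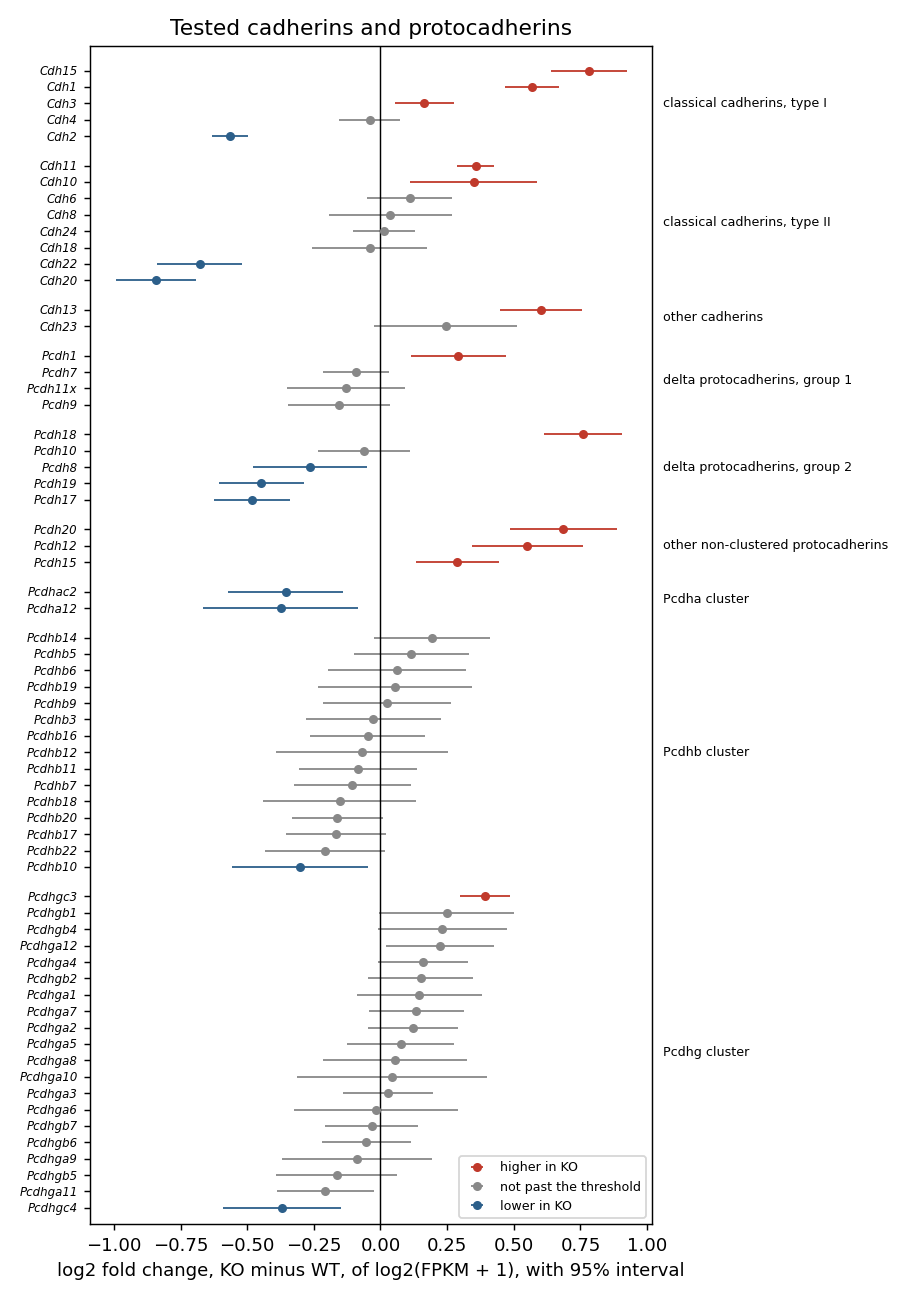
Log2 fold change of log2(FPKM + 1), KO minus WT, of the 64 tested members, grouped by class, with 95% intervals from the limma fit. Points in the cadherin classes and among the non-clustered protocadherins are spread from −0.84 to 0.78, while 32 of the 37 tested clustered genes are grey, that is, not past the threshold.

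The members called lay mostly outside the clusters. Of 15 tested Cdh genes 9 were called (60.0%) and of 12 non-clustered protocadherins 8 (66.7%), near the 54.6% of all genes tested. Among 37 tested clustered genes 5 were called (13.5%), 1 higher and 4 lower. Without WT replicate 2 or without KO replicate 1 only 1 was, Pcdhgc3, and without either other library 1 was higher and 2 lower. With TPM 9 were higher and 2 lower, with no variance trend 5 and 4, and with crystallin and erythroid genes left out 1 and 8. All of the clustered genes but Pcdhgc3 had a mean under 6 FPKM, and among these 36 genes 4 were called (11.1%), where 51.0% of all tested genes with means from 1 to 6 FPKM were. In the same range 10 of 17 members outside the clusters were called (58.8%). Genes of a cluster share near-identical sequence, and the sources at hand do not say how reads that match several of them were divided, or whether strand was used.

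Among the type I classical cadherins transcripts of the neural cadherin fell and those of the epithelial and muscle cadherins rose. Cdh2 (Entrez 12558, GRCm38 chromosome 18, positions 16588877 to 16809246, minus strand), which encodes N-cadherin, the main cadherin of neural tissue and of lens fibres, had the highest mean of all members over the 4 libraries. It had 64.7 and 63.6 FPKM in KO libraries, against 95.1 and 95.9 FPKM in WT libraries. The groups lay far apart and the libraries within each group close together, and KO libraries held 67.2% of the WT mean (log2 fold change −0.57, SE 0.03, limma adjusted p = 9.44e-06). Fewer cells of a type and less RNA per cell cannot be told apart in bulk tissue.

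Cdh1 (Entrez 12550, chromosome 8, positions 106603351 to 106670246, plus strand) encodes E-cadherin, the cadherin of epithelia. It stood at 19.0 and 18.5 FPKM in KO libraries and at 12.6 and 12.1 FPKM in WT libraries. That was a 1.52-fold higher mean in KO libraries (log2 fold change 0.57, SE 0.04, adjusted p = 5.22e-05). Cdh3, the gene for P-cadherin of basal epithelium and retinal pigment epithelium, is its neighbour on the same strand of chromosome 8, at positions 106510891 to 106557297. Its values were closer, with 11.3 and 10.95 FPKM in KO libraries, against 9.90 and 9.71 FPKM in WT libraries. The rise of Cdh3 was small (0.16, SE 0.05, adjusted p = 0.0210). Its call was lost without any 1 of the 4 libraries, with median-of-ratios scaling and with crystallin and erythroid genes left out of the scaling (adjusted p from 0.00214 to 0.166 over all alternatives).

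Cdh15 encodes M-cadherin of muscle precursors and lies at positions 122847966 to 122867397 of chromosome 8, plus strand. It was at 7.43 and 7.51 FPKM in KO libraries and at 4.05 and 3.81 FPKM in WT libraries, the largest rise of any tested member on the log2 scale (0.78, SE 0.06, adjusted p = 5.71e-05). Cdh4, which encodes R-cadherin of the retina, had 13.4 and 12.7 FPKM in KO libraries, against 13.7 and 13.2 FPKM in WT libraries. The groups overlapped, and the difference was −0.04 with a 95% interval from −0.16 to 0.07 (adjusted p = 0.506).

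Both the summed level of the type I cadherins and its make-up lay apart between the groups. Summed over the 5 genes the level was 116 and 113 FPKM in KO libraries, against 135 and 135 FPKM in WT libraries, or 84.9% of the WT mean. Cdh2 transcripts supplied 55.9% and 56.2% of that sum in KO libraries and 70.3% and 71.2% in WT libraries. The share of Cdh1 was 16.4% in both KO libraries, against 9.29% and 8.98% in WT libraries. Shares of a sum are bound together, and a smaller share of Cdh2 leaves larger ones to the others. That of Cdh4, whose own level was not past the threshold, was 11.6% and 11.2% in KO libraries, against 10.1% and 9.79% in WT libraries. Cdh2 stood 3.40-fold and 3.44-fold above Cdh1 in KO libraries, against 7.56-fold and 7.92-fold in WT libraries. For each of these quantities the exact two-sided permutation test gave p = 0.333, the smallest value that 4 libraries allow.

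**Figure D2:**
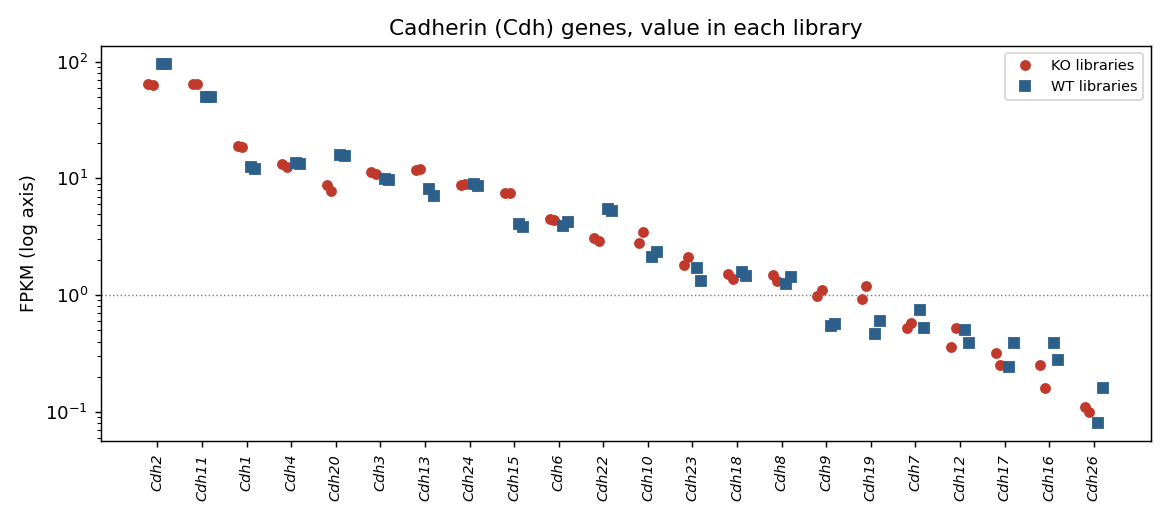
FPKM (log axis) of the 22 Cdh genes in each library, ordered by mean level, with KO libraries as circles left of WT libraries as squares; the dotted line marks 1 FPKM. Cdh2 and Cdh11 coincide in KO libraries and are separate in WT libraries, and the pairs of Cdh1, Cdh15, Cdh20 and Cdh22 do not overlap between groups. Such separation was seen in 77.9% of all tested genes.

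Type II cadherins are a second classical branch, best known from neurons and mesenchyme. Of the 12, 8 were tested, and 2 were higher and 2 lower. Cdh11 (Entrez 12552, chromosome 8, positions 102632095 to 102785642, minus strand), the cadherin of mesenchyme and osteoblasts, was at 64.7 and 64.0 FPKM in KO libraries and at 50.2 and 49.7 FPKM in WT libraries (0.36, SE 0.03, adjusted p = 7.64e-05). Its values overlapped those of Cdh2 in KO libraries and lay below those of Cdh2 in WT libraries. Cdh10, a cadherin of the brain, had 2.80 and 3.48 FPKM in KO libraries and 2.13 and 2.35 FPKM in WT libraries (0.35, adjusted p = 0.0226). Its call was lost without WT replicate 1 or 2, without KO replicate 2 and without a filter on low values (adjusted p from 0.00577 to 0.129 over all alternatives).

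Cdh20 and Cdh22 were the type II cadherins that fell. Cdh20 (Entrez 23836, chromosome 1, positions 104768529 to 104995481, plus strand), a cadherin of the developing nervous system, had 8.86 and 7.78 FPKM in KO libraries, against 15.9 and 15.5 FPKM in WT libraries. This was the largest fall of any tested member on the log2 scale, to 53.0% of the WT mean (−0.84, SE 0.06, adjusted p = 5.13e-05). Cdh22 (chromosome 2, positions 165111507 to 165234853, minus strand), known as a cadherin of pituitary and brain, stood at 3.08 and 2.89 FPKM in KO libraries and at 5.49 and 5.26 FPKM in WT libraries. It was at 55.5% of the WT mean (−0.68, SE 0.07, adjusted p = 0.000192).

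The other 4 tested type II genes had overlapping or close values. Cdh24 was at 8.87 and 8.91 FPKM in KO libraries and at 8.91 and 8.69 FPKM in WT libraries, with an interval of the difference from −0.10 to 0.13. Cdh6, Cdh8 and Cdh18 had log2 fold changes of 0.11, 0.04 and −0.04 and were not past the threshold, although Cdh6 was with TPM (0.23, adjusted p = 0.0307, within 0.0307 to 0.612 over all alternatives). Cdh7, Cdh9, Cdh12 and Cdh19 were below the level tested. Of these, Cdh9 had 0.98 and 1.10 FPKM in KO libraries, against 0.54 and 0.57 FPKM in WT libraries. Cdh19, a marker of Schwann cell precursors, had 0.92 and 1.20 FPKM in KO libraries, against 0.46 and 0.60 FPKM in WT libraries. With no filter on low values both were called higher (adjusted p = 0.00922 for Cdh9 and 0.0280 for Cdh19), as were 24.4% of all 18702 genes.

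Of the 5 other cadherins 2 were tested. Cdh13 (chromosome 8, positions 118283733 to 119324921, plus strand) encodes T-cadherin, which is held to the membrane by a lipid anchor and has no cytoplasmic tail. It had 11.9 and 12.0 FPKM in KO libraries and 8.07 and 7.07 FPKM in WT libraries, 1.58-fold higher in KO libraries (0.60, SE 0.06, adjusted p = 0.000286). Cdh23, a tip-link cadherin of sensory hair cells, was at 1.80 and 2.14 FPKM in KO libraries and at 1.71 and 1.31 FPKM in WT libraries. It was not past the threshold (0.25, adjusted p = 0.106), although it was with TPM (adjusted p = 0.0378, within 0.0378 to 0.409 over all alternatives). Cdh16, Cdh17 and Cdh26, known from kidney, gut and other epithelia, stayed below 0.40 FPKM in every library, with Cdh17 at 0.32 and 0.25 FPKM in KO libraries and at 0.24 and 0.39 FPKM in WT libraries.

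Marker genes of several cell types moved in the same libraries as these cadherins. Of 9 retinal progenitor markers 7 were lower and 1 higher, with sums of 878 and 878 FPKM in KO libraries, against 1311 and 1318 FPKM in WT libraries. Of 11 markers of retinal neurons 10 were lower and 1 higher, with sums of 326 and 333 FPKM in KO libraries, against 494 and 504 FPKM in WT libraries. Their sums stood at 66.8% and 66.1% of the WT level, beside 67.2% for Cdh2 and 9.17% for the lens markers. Surface epithelium markers, 7 of 8 higher and 1 lower, had 1191 and 1191 FPKM in KO libraries, against 590 and 614 FPKM in WT libraries, or 198% of the WT level beside 152% for Cdh1 and 113% for Cdh3.

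Muscle markers summed to 1827 and 1845 FPKM in KO libraries, against 835 and 900.0 FPKM in WT libraries, or 212% of the WT level beside 190% for Cdh15. Mesenchyme markers summed to 2940 and 2959 FPKM in KO libraries, against 1349 and 1327 FPKM in WT libraries, or 220% beside 129% for Cdh11. For nerve glia, all 5 markers were higher, with sums of 36.0 and 36.3 FPKM in KO libraries, against 19.6 and 19.3 FPKM in WT libraries. All 4 tested of 6 forebrain markers were higher, with sums of 19.0 and 19.9 FPKM in KO libraries, against 8.37 and 9.69 FPKM in WT libraries. No gene of these lists was at 0 in any library. The part of these cell types in the changes of the cadherins was not tested.

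Delta protocadherins are the non-clustered group best known from the nervous system, and are divided by the conserved motifs of their cytoplasmic tails. Of the 5 genes of the second group, 3 were lower and 1 higher. Pcdh18 (Entrez 73173, chromosome 3, positions 49743296 to 49757325, minus strand) was the one called higher. It had 12.2 and 12.0 FPKM in KO libraries, against 7.13 and 6.34 FPKM in WT libraries, a 1.80-fold higher mean (0.76, SE 0.06, adjusted p = 7.4e-05).

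Pcdh17 (chromosome 14, positions 84443563 to 84539002, plus strand), known for its part in axon extension, stood at 3.72 and 3.78 FPKM in KO libraries and at 5.63 FPKM in both WT libraries (−0.48, SE 0.06, adjusted p = 0.000579). Pcdh19 (chromosome X, positions 133582860 to 133688987, minus strand), whose human counterpart is mutated in an X-linked epilepsy, had 2.78 and 2.72 FPKM in KO libraries, against 4.14 and 4.08 FPKM in WT libraries (−0.45, SE 0.07, adjusted p = 0.00140). These genes fell to 66.6% and 66.9% of their WT means, beside 67.2% for Cdh2, 53.0% for Cdh20 and 55.5% for Cdh22. Whether these falls have a common source was not tested.

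Pcdh8, at 2.37 and 2.89 FPKM in KO libraries and 3.37 and 3.33 FPKM in WT libraries, was only just past the threshold (−0.26, adjusted p = 0.0412). Its call was lost without WT replicate 1 or 2, without KO replicate 1, with TPM and with no filter (adjusted p from 0.0157 to 0.183 over all alternatives). Pcdh10 overlapped between groups, with 5.23 and 4.82 FPKM in KO libraries and 5.01 and 5.58 FPKM in WT libraries (interval −0.24 to 0.11). Because the members went opposite ways, the sum over this group differed little, at 26.3 FPKM in both KO libraries, against 25.3 and 24.96 FPKM in WT libraries.

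In the first delta group 1 of 4 genes was called. Pcdh1, a protocadherin also found in airway epithelium, had 5.39 and 5.35 FPKM in KO libraries, against 3.91 and 4.52 FPKM in WT libraries (0.29, adjusted p = 0.0147), and lost its call without WT replicate 1, KO replicate 1 or KO replicate 2 (adjusted p from 0.00258 to 0.0882). Pcdh7 had 6.82 and 6.94 FPKM in KO libraries and 7.42 and 7.38 FPKM in WT libraries, a difference of −0.09 that was not past the threshold (adjusted p = 0.173). With scaling that left out crystallin and erythroid genes it was (adjusted p = 0.0359, within 0.0359 to 0.835 over all alternatives). Pcdh9, at 4.11 and 3.53 FPKM in KO libraries and 4.22 and 4.50 FPKM in WT libraries, was not past the threshold (−0.16, interval −0.35 to 0.04). Pcdh11x, on the X chromosome, was not either (−0.13).

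The 3 remaining non-clustered genes were all higher in KO libraries. Pcdh20 (chromosome 14, positions 88464743 to 88471396, minus strand) had 2.33 and 2.30 FPKM in KO libraries, against 1.04 and 1.08 FPKM in WT libraries. Its mean was 2.18-fold higher, the largest ratio among the tested members (log2 fold change 0.69, SE 0.08, adjusted p = 0.000545). Pcdh12, a protocadherin of endothelial cells on chromosome 18, had 2.20 and 2.30 FPKM in KO libraries, against 1.29 and 1.15 FPKM in WT libraries (0.55, SE 0.09, adjusted p = 0.00178). In the same libraries 6 of 8 endothelial markers were higher and 1, the VEGF receptor gene Kdr, lower, and their sums were 177 and 177 FPKM in KO libraries, against 147 and 147 FPKM in WT libraries. That is 121% of the WT level, beside 184% for Pcdh12. Kdr had the highest level of the 8, with means of 47.6 FPKM in KO and 61.5 FPKM in WT libraries, and so weighs most in the sum. The median log2 fold change of the markers was 0.66, beside 0.55 for Pcdh12. The part of endothelium in the rise of Pcdh12 was not tested.

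Pcdh15, the tip-link partner of Cdh23 in hair cells and also a gene of photoreceptors, stood at 4.28 and 4.42 FPKM in KO libraries and at 3.33 and 3.43 FPKM in WT libraries (0.29, adjusted p = 0.00875). Without KO replicate 2 the call was lost (adjusted p = 0.0573, the highest over all alternatives, of which the lowest was 0.00177).

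**Figure D3:**
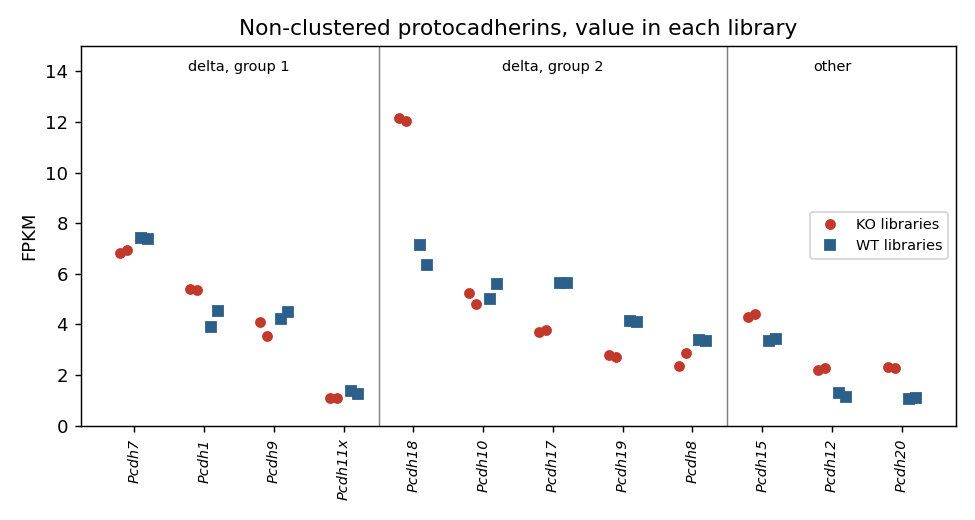
FPKM of the 12 non-clustered protocadherins in each library, by group, with KO libraries as circles left of WT libraries as squares. Pcdh18, Pcdh12, Pcdh20, Pcdh15 and Pcdh1 lie higher in KO libraries, Pcdh17, Pcdh19 and Pcdh8 lower, and Pcdh10 is the only gene whose groups overlap. Among all tested genes the groups did not overlap in 77.9%.

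Promoters are shown for members whose call was kept, to set the sequence at the start of genes that rose beside that of genes that fell. Of 90 members 22 had a promoter in the RefSeq table of GRCm38.p6, and of the 13 members with kept calls 7 did. Each window runs from 250 bases before to 50 after the annotated start. The largest rise and fall of a Cdh gene and of a protocadherin among them are printed 5′ to 3′ on the gene's strand, with CCAAT and GGGCGG boxes, on either strand, in capitals. The windows are chr8:122848124-122848423 (Cdh15, plus), chr3:49757267-49757566 (Pcdh18, minus), chr1:104768270-104768569 (Cdh20, plus) and chr14:84443313-84443612 (Pcdh17, plus).
Cdh15, higher: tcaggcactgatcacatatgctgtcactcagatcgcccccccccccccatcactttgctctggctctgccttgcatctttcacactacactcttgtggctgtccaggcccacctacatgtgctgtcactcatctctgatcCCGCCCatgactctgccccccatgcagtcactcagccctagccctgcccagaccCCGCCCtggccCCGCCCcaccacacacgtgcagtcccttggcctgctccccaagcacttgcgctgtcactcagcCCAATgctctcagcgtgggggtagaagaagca
Pcdh18, higher: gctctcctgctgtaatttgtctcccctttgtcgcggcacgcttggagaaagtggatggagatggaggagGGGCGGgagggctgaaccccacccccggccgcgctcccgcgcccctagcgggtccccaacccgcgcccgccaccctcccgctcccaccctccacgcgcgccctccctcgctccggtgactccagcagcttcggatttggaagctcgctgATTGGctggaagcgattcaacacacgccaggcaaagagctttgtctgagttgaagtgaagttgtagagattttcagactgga
Cdh20, lower: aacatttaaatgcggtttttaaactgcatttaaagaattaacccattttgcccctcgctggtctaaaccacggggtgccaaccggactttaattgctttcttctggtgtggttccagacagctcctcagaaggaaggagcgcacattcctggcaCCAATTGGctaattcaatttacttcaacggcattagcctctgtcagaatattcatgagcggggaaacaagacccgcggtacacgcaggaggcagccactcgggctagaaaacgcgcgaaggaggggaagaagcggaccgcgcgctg
Pcdh17, lower: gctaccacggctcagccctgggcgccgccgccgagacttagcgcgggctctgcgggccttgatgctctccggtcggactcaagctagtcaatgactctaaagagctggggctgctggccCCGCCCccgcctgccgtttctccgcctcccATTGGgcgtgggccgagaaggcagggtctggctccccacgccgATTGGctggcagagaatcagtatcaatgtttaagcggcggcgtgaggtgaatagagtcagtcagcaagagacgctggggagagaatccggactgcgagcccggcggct

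In the Cdh15 window 3 copies of GGGCGG, all in the reverse orientation CCGCCC, lay upstream of the RefSeq start and 1 CCAAT downstream of it. The GENCODE gene given above begins at 122847966, before this window, so by that annotation the whole window lies within the gene. Cdh20 held CCAAT in both orientations, overlapping within the letters CCAATTGG, and no GGGCGG. Pcdh18 and Pcdh17 had the reverse form ATTGG, which was present once and in 2 copies, and 1 GGGCGG box each. A CCAAT on either strand was present in 6 of the 7 windows and in 37.4% of all 32851 promoters of the table. GGGCGG was in 5 of the 7 and in 35.7% of all. The E-boxes CAGGTG, which on the other strand reads CACCTG, and CAGCTG were in none of the 7 windows, and in 20.2% and 16.3% of all promoters. No base belonged to 2 different motifs. CCAAT and GGGCGG were present in promoters of members that rose and of members that fell.

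The protocadherin clusters lie next to each other on the plus strand of chromosome 18, in the order Pcdha, Pcdhb and Pcdhg. In the annotation Pcdha spans positions 36930184 to 37187661, Pcdhb 37294812 to 37524479 and Pcdhg 37661793 to 37841873. With Cdh2, Pcdh1 and Pcdh12 they put 59 of the 90 members (65.6%) on this chromosome. Each Pcdha and each Pcdhg gene joins a variable exon of its own to constant exons, and the annotation has 2860 exonic bases common to all 13 Pcdha genes found by symbol and 2116 common to all 21 Pcdhg genes. No exonic base is common to all Pcdhb genes, which have an exon of their own only. A read from a constant exon cannot be assigned to a gene, so the value of any single Pcdha or Pcdhg gene is uncertain, and the cluster sum depends less on how such reads were divided.

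The cluster sums lay apart between the groups, in different directions. Values of single genes did so, in either direction, in 68.1% of all 18702 genes listed. The Pcdha sum was 8.41 and 7.59 FPKM in KO libraries, against 12.9 and 12.6 FPKM in WT libraries, that is 62.9% of the WT mean (log2 ratio −0.67). Pcdhb had 31.8 and 31.6 FPKM in KO libraries and 34.0 and 33.2 FPKM in WT libraries (94.3%, log2 ratio −0.08). Pcdhg had 77.8 and 77.4 FPKM in KO libraries and 69.6 and 69.4 FPKM in WT libraries (112%, log2 ratio 0.16).

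For each sum the exact two-sided permutation test gave p = 0.333, the smallest 4 libraries allow. The Pcdhb sum turned to a log2 ratio of 0.04 with TPM, whereas Pcdha stayed lower and Pcdhg higher under each scaling tried. Taken over all 56 genes the sum hardly differed, at 118 and 117 FPKM in KO libraries, against 116 and 115 FPKM in WT libraries. The share of Pcdha in it was 7.13% and 6.51% in KO libraries, against 11.03% and 10.9% in WT libraries.

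**Figure D4:**
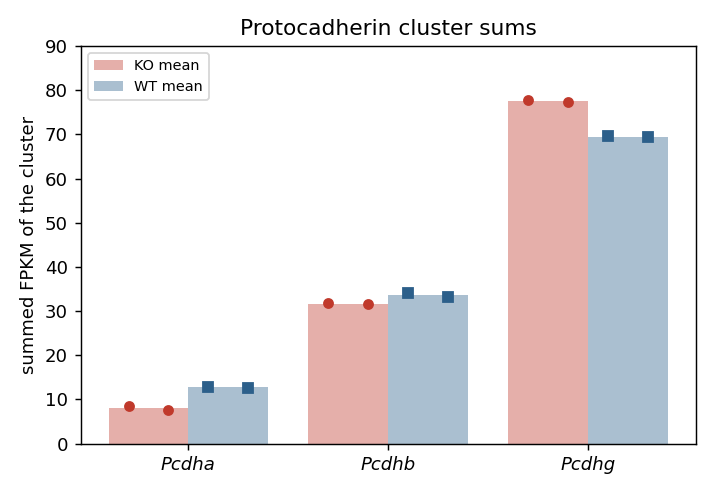
Summed FPKM of the genes of each protocadherin cluster, with bars for group means (KO left, WT right) and points for libraries. The Pcdha bar is lower in KO than in WT libraries (8.0 against 12.7 FPKM), Pcdhb is close (31.7 against 33.6 FPKM) and Pcdhg is higher (77.6 against 69.5 FPKM).

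Within Pcdha 13 of the 14 genes had a lower mean in KO libraries, and in 11 of them both KO values lay below both WT values, which was so for 28.2% of all genes of the tables. These genes are at very low levels, 12 of them under the mean of 1 FPKM needed for the test, and they share reads, so the count is not one of independent genes. Pcdhac2, the gene nearest the constant exons and known to be used constitutively, for example in serotonergic neurons, had the highest level. It was at 2.25 and 2.33 FPKM in KO libraries, against 2.92 and 3.52 FPKM in WT libraries (−0.36, SE 0.09, adjusted p = 0.0146). Pcdha12 had 0.86 and 0.64 FPKM in KO libraries, against 1.10 and 1.44 FPKM in WT libraries (−0.37, SE 0.12, adjusted p = 0.0363).

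Both calls were lost without WT replicate 2, without KO replicate 1 and without KO replicate 2. That of Pcdha12 was lost with TPM and with no filter as well. Over all alternatives the adjusted p ran from 0.00549 to 0.0886 for Pcdhac2 and from 0.0207 to 0.179 for Pcdha12. Pcdha3, just under the level tested, had 0.57 and 0.94 FPKM in KO libraries and 1.25 and 1.14 FPKM in WT libraries. The exception to the direction was Pcdha11, with 0.93 and 0.76 FPKM in KO libraries, against 0.60 and 0.61 FPKM in WT libraries.

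Some Pcdha genes were listed at 0 in a KO library and not in a WT library. Pcdha7 had 0.72 and 0 FPKM in KO libraries, against 1.49 and 1.39 FPKM in WT libraries. Pcdha4 had 0 and 0.44 FPKM in KO libraries, against 0.96 and 0.50 FPKM in WT libraries. Pcdha6, at 0 and 0.04 FPKM in KO libraries and 0.15 and 0.08 FPKM in WT libraries, was near 0 in all. With reads divided among copies such a 0 can be a failed estimate. When all 14 genes were tested with no filter, 3 were called lower, Pcdha1 (adjusted p = 0.0296), Pcdha9 (0.0266) and Pcdhac2 (0.0435), beside 14.8% of all genes. Pcdha11, the only one with a positive fold change (0.20), was not past the threshold (adjusted p = 0.0764).

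**Figure D5:**
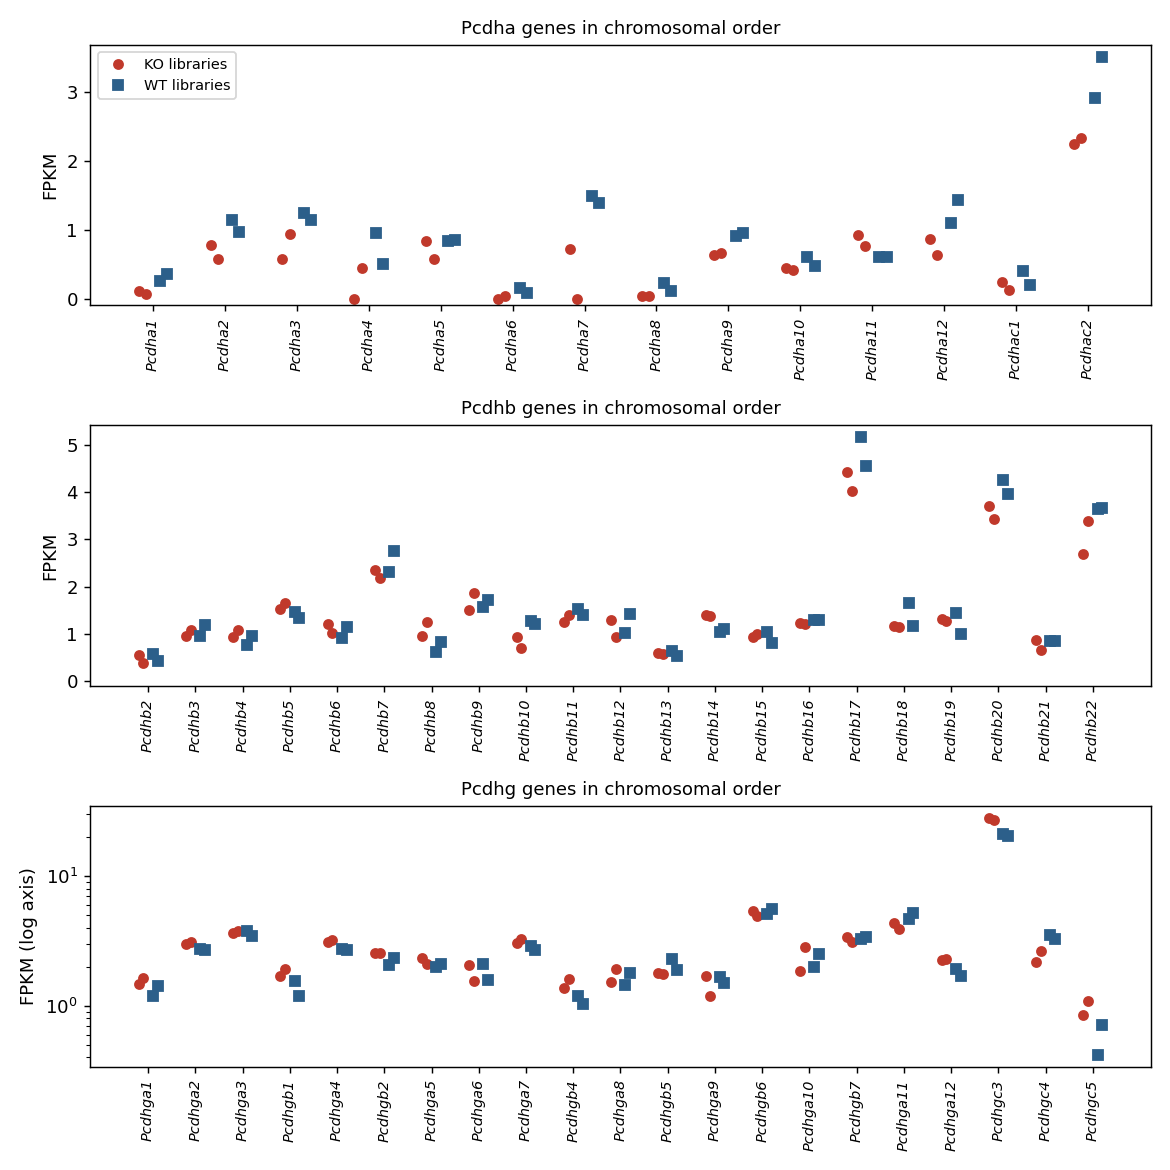
FPKM of each clustered protocadherin in each library, in chromosomal order (RefSeq, GRCm38.p6), with KO libraries as circles left of WT libraries as squares; the lowest panel has a log axis. KO values lie mostly below WT values along the Pcdha cluster, the values mix along most of Pcdhb, and Pcdhgc3 stands above all other genes.

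The genes of Pcdhb, each a single variable exon with a tail of its own, were mostly not called. Both KO values lay beyond both WT values in 68.1% of all 18702 genes listed. In Pcdhb the values of the groups overlapped in 13 of the 21 genes, and both KO values lay below both WT values in 5 and above them in 3. Of 15 tested 1 was lower, Pcdhb10 (0.93 and 0.71 FPKM in KO libraries, against 1.28 and 1.20 FPKM in WT libraries, adjusted p = 0.0482), and its call was lost with TPM, with a pseudocount of 0.1 and without any 1 of the 4 libraries (adjusted p from 0.0195 to 0.183). The highest members were at the end of the cluster nearest Pcdhg. Pcdhb17 had 4.41 and 4.02 FPKM in KO libraries and 5.17 and 4.54 FPKM in WT libraries (−0.17, adjusted p = 0.117). Pcdhb20 had 3.71 and 3.42 FPKM in KO libraries and 4.25 and 3.96 FPKM in WT libraries (−0.16, adjusted p = 0.0989). Pcdhb22 had 2.69 and 3.38 FPKM in KO libraries and 3.64 and 3.65 FPKM in WT libraries (−0.21, adjusted p = 0.103).

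None of these 3 was past the threshold, although the groups did not overlap in any of them. With crystallin and erythroid genes left out of the scaling all 3 were (adjusted p = 0.0433 for Pcdhb17, 0.0358 for Pcdhb20 and 0.0385 for Pcdhb22), and over all alternatives their values reached 0.502, 0.480 and 0.433. Pcdhb22 was also called without KO replicate 2 (adjusted p = 0.0359). Over the 15 tested genes the log2 fold changes ran from −0.30 to 0.19, with a median of −0.07. The highest was that of Pcdhb14 (adjusted p = 0.113), which was called higher with TPM and without the variance trend.

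In Pcdhg the genes of the C group, next to the constant exons, were the ones called, and they went opposite ways. Pcdhgc3 (Entrez 93706, positions 37806364 to 37841873), which is expressed far beyond neurons, had 28.2 and 26.9 FPKM in KO libraries, against 21.0 and 20.5 FPKM in WT libraries. Its mean was 1.33-fold higher (0.39, SE 0.04, adjusted p = 0.000203), and it supplied 36.3% and 34.8% of the Pcdhg sum in KO libraries, against 30.2% and 29.6% in WT libraries. Pcdhgc4, needed in the mouse for the survival of interneurons, was at 2.16 and 2.66 FPKM in KO libraries and 3.5 and 3.29 FPKM in WT libraries (−0.37, SE 0.09, adjusted p = 0.0133). Without WT replicate 1 or 2 or without KO replicate 1 this call was lost (adjusted p from 0.00533 to 0.0832 over all alternatives). Pcdhgc5, below the level tested, had 0.85 and 1.09 FPKM in KO libraries and 0.42 and 0.71 FPKM in WT libraries.

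Without Pcdhgc3 the Pcdhg sum was 49.6 and 50.5 FPKM in KO libraries, against 48.6 and 48.9 FPKM in WT libraries, or 103% of the WT mean. None of the 12 genes of the A group and none of the 6 of the B group was called in the limma fit. The unadjusted p was under 0.05 for Pcdhga11 and Pcdhga12, at 0.0322 and 0.0342. Pcdhgb6 had 5.38 and 4.91 FPKM in KO libraries and 5.14 and 5.61 FPKM in WT libraries (interval −0.22 to 0.11). Pcdhga11 had 4.38 and 3.94 FPKM in KO libraries and 4.69 and 5.22 FPKM in WT libraries (−0.21, adjusted p = 0.0574), and was called lower with median-of-ratios scaling (adjusted p = 0.0327) and without crystallin and erythroid genes (0.0183), within 0.0183 to 0.268 over all alternatives. With TPM 8 Pcdhg genes were called higher and 1 lower, against 1 and 1 with FPKM. With no variance trend 4 were higher and 1 lower, the added ones being Pcdhga4, Pcdhga12 and Pcdhgb4 (adjusted p = 0.0271, 0.0217 and 0.0406). With median-of-ratios scaling and with crystallin and erythroid genes left out, 1 was higher and 2 lower.

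Among the catenins, which link classical cadherins to actin, the forms known from neurons fell and plakoglobin rose. Of 7 tested 4 were higher and 2 lower, with a median of 0.12. Ctnna2, the alpha-catenin of neurons, had 12.3 and 11.6 FPKM in KO libraries, against 18.4 and 19.0 FPKM in WT libraries (−0.61, adjusted p = 5.71e-05). Jup, plakoglobin of epithelial junctions, had 34.4 and 32.7 FPKM in KO libraries, against 23.0 and 23.6 FPKM in WT libraries (0.51, adjusted p = 5.87e-05). Ctnnd2, the delta-catenin of neurons, was lower as well (−0.38, adjusted p = 0.000205). The catenins found in most tissues, Ctnna1 (0.18), Ctnnd1 (0.24) and Ctnnb1 (0.12), were higher. Under 5 alternatives 3 catenins were higher, including both scalings other than TPM, and with TPM 5 were.

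Among 8 actin linkers of the adherens junction 4 were higher and 2 lower. Lima1 (0.82), Vcl, the vinculin gene (0.68), and Vasp (0.46) rose (adjusted p = 5.46e-06, 1.31e-05 and 6.17e-05). With median-of-ratios scaling 4 were higher and 4 lower, and with crystallin and erythroid genes left out 3 and 4. Of 4 nectins, the immunoglobulin-type adhesion molecules of the same junctions, Nectin4 of epithelia was higher (0.63, adjusted p = 0.000303) and Nectin3 lower (−0.30, adjusted p = 0.00144). Nectin1 and Nectin2 each differed by 0.03 and were not past the threshold, and with TPM 3 nectins were higher and 1 lower.

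All 6 tested repressors of the E-cadherin gene were higher, although Cdh1 was also higher in the same libraries. Their median was 0.91, against 0.04 over all genes, and 5 were called under median-of-ratios scaling, with crystallin and erythroid genes left out, without the variance trend and without any 1 library. Twist2 had 10.4 and 11.1 FPKM in KO libraries, against 4.2 and 4.32 FPKM in WT libraries (1.16, adjusted p = 8.69e-06). Snai2 had 9.19 and 9.44 FPKM in KO libraries, against 3.82 and 3.87 FPKM in WT libraries (1.09, adjusted p = 9.7e-06). Twist1 rose by 1.33 (adjusted p = 1.66e-05). These factors are also markers of mesenchyme and neural crest, and the mesenchyme list given above, which holds Twist2, stood at 220% of its WT level. The part of mesenchyme in the rise of the repressors was not tested.

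A further list held large cadherins of planar polarity, which were outside the membership by their names, and Fjx1, the gene of a kinase that acts on them. Of 8 tested cadherins 4 were higher and 2 lower, with a median of 0.13, and Fjx1 was higher (0.20, adjusted p = 0.0139). Fat3, a giant cadherin that shapes retinal amacrine cells, had 5.18 and 5.25 FPKM in KO libraries, against 7.53 and 7.48 FPKM in WT libraries (−0.45, adjusted p = 0.000457). Dchs1, the ligand of FAT4, was higher (0.34, adjusted p = 0.00100), as was Fat2 of epithelia (0.61, adjusted p = 0.00165). Counted with Fjx1, 5 were higher and 2 lower, against 5 and 1 with TPM and 4 and 3 with crystallin and erythroid genes left out. Of 5 tested calsyntenins and cadherin-related genes, Clstn3 was lower (−0.29, adjusted p = 0.00265) and Cdhr4 higher (0.63, adjusted p = 0.000637). With TPM 2 were higher and 1 lower, and with crystallin and erythroid genes left out 1 and 2.

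Of 8 genes of cadherin turnover, the metalloprotease gene Adam15 was higher (0.54, adjusted p = 7.65e-05), and the endosomal genes Rab5a (−0.10, adjusted p = 0.030) and Rab11a (−0.09, adjusted p = 0.0386) were lower. Of these lower calls 1 was left without WT replicate 1 and none without WT replicate 2, KO replicate 1 or KO replicate 2, or with no variance trend. With TPM the log2 fold changes were 0.02 for Rab5a and 0.03 for Rab11a, and 3 genes of the list were higher and none lower. With crystallin and erythroid genes left out 1 was higher and 4 lower.

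Of 12 genes for chromatin regulators of the protocadherin clusters, 7 were lower in the limma fit and none higher, also at an unadjusted p under 0.05, with a median of −0.13. Of all genes tested 21.1% were lower and 33.5% higher. CTCF and cohesin are known to join the promoters of the Pcdha genes to their enhancer. The cohesin genes Smc1a (−0.32, adjusted p = 0.000342), Rad21 (−0.20, adjusted p = 0.000814) and Smc3 (−0.20, adjusted p = 0.00206) had the lowest adjusted p. Not all cohesin genes fell. Stag1 (0.03), Stag2 (0.05) and Nipbl, of cohesin loading (−0.07), were not past the threshold (adjusted p = 0.652, 0.287 and 0.169). Ctcf had 45.3 and 46.5 FPKM in KO libraries, against 49.9 and 51.5 FPKM in WT libraries (−0.14, adjusted p = 0.0101). The count depended on scaling and on libraries. With TPM 2 were lower and 3 higher, beside 12.0% and 49.9% of all genes. With median-of-ratios scaling and with crystallin and erythroid genes left out 9 were lower, beside 26.5% and 31.2% of all genes. Fewer were lower when any 1 library was left out, where the median of the list ran from −0.15 to −0.11. Retinal progenitor markers stood at 66.8% of the WT level in the same libraries, and their part in these falls was not tested.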

How the data were processed

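Per the file headers, the tables deposited by the authors give FPKM and TPM per gene for every library, and TPM is FPKM rescaled to a common sum. Alignment and quantification tools named in the submitters' processing notes are HISAT2, TopHat, Cufflinks and DESeq, listed with neither role nor version, and the builds are GRCm38 and GRCh38. Because FPKM is relative to all fragments, a fall of abundant crystallin transcripts raises the values of other genes.

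Depth was estimated from the steps between low FPKM values of 257 to 285 genes per library. Of these values 55.1% to 63.4% came within 0.15 of whole fragments (30.0% by chance), too few to recover counts, so no count test was run. Chi-square per gene between replicates was 1.76 in KO and 1.87 in WT libraries.

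KO was compared with WT on log2(FPKM + 1) over genes averaging 1 FPKM or more, in limma (version 3.58.1, in R 4.3.3) with a variance trend, 2 residual and 4.89 prior degrees of freedom. The limma fit was first run on simulated data with few changed genes, all raised. That setting is unlike these data, in which 54.6% of genes were called, in both directions. Cluster sums had an exact permutation test. Alternatives were another pseudocount, other filters, a replicate block, TPM, other scalings, no variance trend and each library left out. Entrez numbers matched RefSeq for 18647 genes (99.7%), and positions are from GENCODE M21 (GRCm38) by symbol. Values per library are given for Cdh1 to Cdh4, the 3 members with the highest mean of each class, the 8 largest called rises and falls, and further members chosen after their values were seen. In the other lists up to 3 called genes with the lowest p were to be named, and others named were chosen after their values were seen. The members and lists were chosen with earlier results of these data known.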

Additional observations from a re-analysis of the deposited data

How the results depend on the processing

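With TPM 22 members were higher, and of the associated lists 9 genes were lower, against 17 with FPKM. Rab5a turned to 0.020 and Rab11a to 0.030 with TPM. The filter of 5 FPKM in 2 libraries tested 17 members and called 8 higher and 4 lower, beside 34.1% and 23.1% of all genes, and so left out most of the low clustered genes. The log2 ratio of the Pcdha sum was −0.55 with TPM and −0.75 with crystallin and erythroid genes left out of the scaling. That of Pcdhb was 0.036, −0.17 and, with median-of-ratios scaling, −0.13, and that of Pcdhg 0.28, 0.077 and 0.11. These scalings multiply each library by 1 factor, which moves the ratios of the sums together. Because 1 is added before the log2, the fold changes of single genes move by differing amounts. With TPM that of Cdh2 went from −0.57 to −0.45 and that of Cdh15 from 0.78 to 0.97.

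With a library left out 8 to 10 members were higher and 5 to 8 lower, 18 to 20 list genes higher and 11 to 13 lower, and the ratio of the sums ran from −0.74 to −0.60 for Pcdha, from −0.10 to −0.07 for Pcdhb and was 0.16 for Pcdhg. Fewer libraries enter those fits, and the lone library of a group is assumed to vary like the others.

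With the labels' replicate numbers as a replicate block, 12 members were higher and 10 lower, as without it (34.4% and 21.9% of all genes), and 21 list genes higher and 18 lower, against 22 and 17. Deviations of same-numbered libraries had a correlation of 0.044, so the numbers were treated as names. By the estimated depth a transcript of 3 kb has 53.2 to 53.7 fragments at 1 FPKM, which limits the precision of the 26 members below the level tested.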
